A study of Mus musculus with 30 samples.

Results

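Pre-mRNA splicing factors were followed in the hippocampus of socially isolated and group-housed mice, as 54 genes of the 17477 in the expression table. They comprise 2 Tra2 genes, 9 SR proteins, 8 SR-related proteins, 2 kinases of SR proteins, 16 hnRNPs, 16 neuronal regulators and the nuclear polyA-binding protein gene Pabpn1. The list was chosen by 1 measured value, the higher level of Tra2a in isolated females, and was completed with genes of the same families. The female contrast is therefore a description: no p is given for its members, and the calls counted in it were made on the values that chose the list and support nothing. P-values for members are given for the males, for the interaction of sex and housing and for the GH mice of both sexes. All 54 were found in the table, some under an older symbol such as Sfrs18 for Pnisr, and all passed the filter on low counts in every fit.

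RNA of whole hippocampus from adult C57 BL/6J mice was sequenced after polyA selection, 1 library a mouse. Social isolation (SI) meant 1 mouse a cage after weaning, in 8 females and 7 males, and the controls were 7 group-housed (GH) females and 8 GH males. The labels give no transgene or drug for any group. Cage mates are not given in the labels, so GH mice may share cages, and sexes were 2 sets of animals, 41 to 79 for females and 1 to 39 for males, so that sex and anything else that differed between those sets cannot be told apart. Mice are named here by group and animal number.

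Splicing factors decide which exons a transcript keeps. SR proteins, named for their serine and arginine repeats, mostly bind exonic enhancers and recruit the spliceosome, hnRNPs often oppose them, and tissue regulators such as Rbfox, Nova, Celf, Elavl and Srrm4 shift exon choice in neurons. CLK kinases phosphorylate the arginine-serine domains and thereby set the activity and location of SR proteins. Many SR and hnRNP genes limit their own level through conserved poison exons whose inclusion marks the transcript for decay. The counts used here are sums per gene, so that productive transcripts and those with a poison exon or a retained intron are not separated. In bulk tissue, fewer cells of a type and less RNA per cell cannot be told apart.

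The promoter of Tra2a is printed beside those of 3 members that show which letters it shares with others and which it does not. Clk4, Srsf11 and Hnrnph1, and the starts shown for the latter pair, were chosen after the matches were seen, for the motifs they hold. They run from 250 bases before to 50 bases after a transcript start, 5′ to 3′ on the gene's strand, from RefSeq on GRCm38.p6. Capitals mark matches, on either strand and also where they overlap, to the 8 motifs spelled out after the sequences. Tra2a lies at chr6:49264003-49264302 (minus strand), Clk4 at chr11:51262864-51263163 (plus strand), Srsf11 at chr3:158031699-158031998 (minus strand, the second of its starts) and Hnrnph1 at chr11:50377428-50377727 (plus strand, 1 of 5 starts).
Tra2a: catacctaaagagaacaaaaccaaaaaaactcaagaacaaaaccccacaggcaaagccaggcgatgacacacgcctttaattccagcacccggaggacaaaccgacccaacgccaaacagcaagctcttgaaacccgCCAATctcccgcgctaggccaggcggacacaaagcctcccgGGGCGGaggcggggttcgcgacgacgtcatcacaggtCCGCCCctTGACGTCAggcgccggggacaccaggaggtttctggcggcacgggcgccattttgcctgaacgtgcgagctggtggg
Clk4: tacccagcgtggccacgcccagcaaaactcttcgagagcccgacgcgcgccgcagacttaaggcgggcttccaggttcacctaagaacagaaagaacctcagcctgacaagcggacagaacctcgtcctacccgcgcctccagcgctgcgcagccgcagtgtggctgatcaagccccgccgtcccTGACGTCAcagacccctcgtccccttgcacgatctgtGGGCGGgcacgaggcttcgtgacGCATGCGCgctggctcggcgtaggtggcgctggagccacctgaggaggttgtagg
Srsf11: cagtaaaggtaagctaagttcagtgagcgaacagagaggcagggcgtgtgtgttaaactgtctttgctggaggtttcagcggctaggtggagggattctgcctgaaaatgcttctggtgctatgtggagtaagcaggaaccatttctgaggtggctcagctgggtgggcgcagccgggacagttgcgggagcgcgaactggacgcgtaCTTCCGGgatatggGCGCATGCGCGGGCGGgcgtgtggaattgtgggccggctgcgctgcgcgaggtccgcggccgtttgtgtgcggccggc
Hnrnph1: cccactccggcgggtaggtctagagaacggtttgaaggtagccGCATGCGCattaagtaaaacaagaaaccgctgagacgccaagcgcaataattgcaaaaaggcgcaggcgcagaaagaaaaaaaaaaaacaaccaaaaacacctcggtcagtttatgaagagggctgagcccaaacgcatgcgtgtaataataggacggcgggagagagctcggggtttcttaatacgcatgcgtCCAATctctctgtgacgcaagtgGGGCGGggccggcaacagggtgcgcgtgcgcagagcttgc
Tra2a and Clk4 were the only members whose windows held TGACGTCA, the palindromic cAMP response element. It was in 2.6% of the member promoters, against 1.8% of 32851 mouse promoters. GCATGCGC, the core of the NRF1 element, was in 6.5% of the member promoters, against 2.7% of all. The members that held it were 5 (Clk4, Hnrnph1, Srrm1, Srsf11 and Srsf7). The GC box GGGCGG was in 62.3% of 77 member promoters, from 49 members, against 35.7% of all. Some windows of a gene overlap, as in Elavl2 and Srsf4, so the same bases can count more than once in each share. By gene, 33 of 49 members held GGGCGG, and no share by gene was taken over all promoters. The CCAAT box was in 49.4% of the member promoters against 37.4%. TATAAA was in 10.4% against 13.6%, the heat shock element GAANNTTC in 11.7% against 7.9%, the ETS core CCGGAAG in 13.0% against 8.9%, and AAGATGGC, the core of the YY1 element, in 3.9% against 2.7%. Member promoters were richer in G and C, with a median of 62.7% against 52.7%. These are matches of letters and say nothing about binding.

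Per length of transcript, most of these genes were abundant. In the 15 GH mice their median level was 41.3 CPM per kb of transcript, where CPM are counts scaled to the normalized library size, against 8.25 over 15265 genes with a known length, and 52 of 54 lay above that median. Celf4, a neuronal RNA-binding protein that regulates mRNA stability and translation, was highest at 204 ± 20.3 CPM per kb (SD, n = 15), with mice from 171 to 236. Hnrnpa2b1, which also carries mRNA into dendrites, followed at 199 ± 17.7 (SD, n = 15), within the spread of Celf4. Rbfox3, the neuronal antigen NeuN, came next at 157 ± 15.3 (SD, n = 15). Among SR proteins Srsf5 was highest at 113 ± 13.0 CPM per kb, among SR-related proteins Rbm39, a U2AF-like factor, at 119 ± 7.91, and among the kinases Clk4 at 29.4 ± 5.12 (SD, n = 15 each). Tra2b, the better known of the Tra2 pair of splicing activators, was at 40.8 ± 3.17 CPM per kb and Tra2a at 15.5 ± 2.27 (SD, n = 15 each). Their mice did not overlap with the transcript lengths used here. At the low end were Srrm4, which drives neuronal microexons, at 4.65 ± 0.495 and Nova1 at 4.14 ± 0.379 CPM per kb (SD, n = 15 each). Of 53 neighbouring pairs in this order, 50 differed by less than the spread between mice. The 3 gaps beyond it followed Hnrnpa2b1, Hnrnpab and Mbnl1. Lengths are medians over annotated transcripts, and with the longest transcript instead the order changes. Srsf1 then moves from rank 12 to 40, Clk1 (17.1 CPM per kb) stands above Clk4 (11.3), and Hnrnpk (111) above Hnrnpa2b1 (80.2). Tra2b is then at 19.1 and Tra2a at 12.4 CPM per kb, and their mice overlap.

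**Figure D1:**
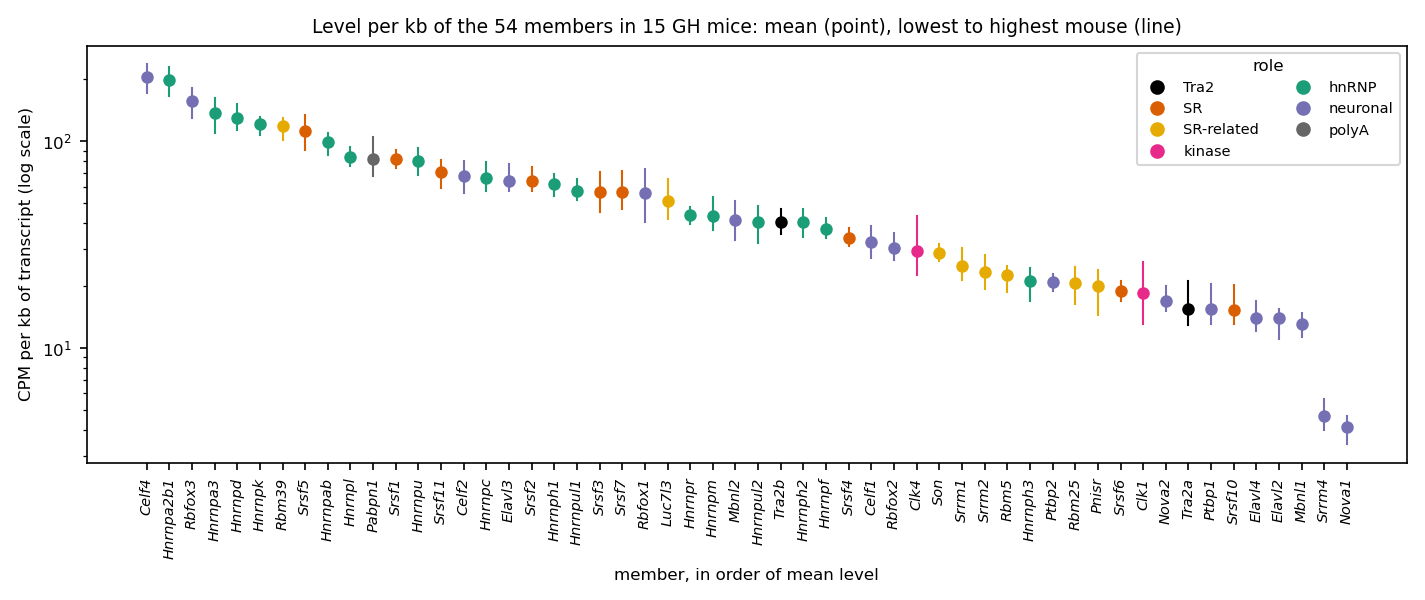
Level per kb of transcript of the 54 members in 15 GH mice, on a log scale, as the mean (point) and the lowest to highest mouse (line), coloured by role and ordered by mean. Celf4 leads at 204 CPM per kb, Tra2a is rank 47 at 15.5, and Srrm4 and Nova1 stand below the rest.

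Over the whole series, total counts per library ranged from 24565563 to 100844898 in females and from 18809307 to 66575824 in males. Mean total counts were lower in SI than in GH males (31730534 against 48691963, exact permutation test, two-sided p = 0.0392). In the males, SI 25, SI 33 and SI 39 stood apart on the first principal component of log CPM, which held 59.1% of the variance. They lay between -99.5 and -61.4, and the other 12 males between -1.34 and 35.2. Neuron markers were present in every library, with a summed level of 5482 to 7642 CPM. The summed level of 8 choroid plexus markers ran from 42.5 to 4974 CPM and the lowest males had 0.0518 CPM of Aqp1 and 0.155 CPM of Kcne2.

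In females, Tra2a was the member with the second largest difference and the smallest ratio of standard error to difference. GH females lay between 31.5 (GH 46) and 37.2 CPM (GH 78), with a median of 33.9. SI females lay between 33.3 (SI 45) and 46.7 CPM (SI 53), with a median of 43.9. Of the 8 SI females 6 exceeded all GH females, and SI 45 and SI 63 were among the GH values. The Log2FC, the fitted difference of SI from GH on the log2 scale with surrogate variables in the model, was 0.32 with a standard error of 0.0469. Its partner Tra2b had a Log2FC of 0.06 (standard error 0.0471), with SI females from 59.5 to 74.7 CPM and GH females from 56.8 to 69.8. By Log2FC, the members nearest to Tra2a were the SR-related gene Pnisr and the kinase gene Clk1 rather than its paralog.

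All 9 SR proteins had a positive Log2FC in females, with a median of 0.17, and so had all 8 SR-related proteins, with a median of 0.20. Rbm39 was the member whose groups did not overlap. SI females lay between 129 (SI 68) and 139 CPM (SI 53), above all GH females, at 103 (GH 54) to 127 (GH 71), where such a gap was found for 0.112% of 16026 genes tested. Its Log2FC was 0.18 (standard error 0.0467). Srsf11, an SR-like protein that acts with Srrm4 on microexons, lay between 77.4 and 95.5 CPM (median 88.3) in SI and between 66.0 and 86.2 (median 72.2) in GH females. Its Log2FC was 0.23 (standard error 0.0603), and 5 of 8 SI females exceeded GH 78, the highest GH female. Srsf1, the founding SR protein, was at 102 to 113 CPM in SI and 89.9 to 103 in GH females, with a Log2FC of 0.17 (standard error 0.0417). Here 6 of 8 SI females lay above the highest GH female. Srsf7, which also serves mRNA export, was at 53.5 to 69.3 CPM in SI and 48.6 to 65.9 in GH females, and its groups overlapped widely. Its Log2FC was 0.19 (standard error 0.0494).

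The largest Log2FC of any member, 0.35 (standard error 0.132), was that of Pnisr, a nuclear protein with an arginine-serine domain. It also had the largest standard error of the members, with SI females from 64.9 (SI 52) to 116 CPM (SI 73) and GH females from 57.1 to 93.7. Clk1 had a Log2FC of 0.30 (standard error 0.103), with a median of 42.2 CPM in SI and 33.1 CPM in GH females, and Clk4 one of 0.19 (standard error 0.106). In both kinases GH 78 was the highest GH female, as in Tra2a, Srsf7 and Srsf11. The smallest values among SR and SR-related genes were those of Srsf4 at 0.06 (standard error 0.0412) and Srrm1, a speckle protein, at 0.10 (standard error 0.0787).

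The hnRNPs differed less, with a median Log2FC of 0.05 and 13 of 16 positive. Hnrnph1, which binds runs of G, was at 139 to 167 CPM in SI and 122 to 152 in GH females, with a Log2FC of 0.22 (standard error 0.0533). Of 8 SI females 6 exceeded the highest GH female, GH 71. Hnrnpc, which binds runs of U and shields introns from cryptic exons, had a Log2FC of 0.17 (standard error 0.0464), with 170 to 227 CPM in SI and 162 to 190 in GH females. Hnrnpul1 was the lowest hnRNP at -0.12 (standard error 0.0491), with 102 to 137 CPM in SI and 121 to 154 in GH females. The abundant Hnrnpa2b1 had a Log2FC of 0.11 (standard error 0.0553), Hnrnpd, a factor of AU-rich mRNA decay, one of -0.03 (0.0702) and Hnrnpr one of 0.01 (0.0538).

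Neuronal regulators were spread about 0, with a median Log2FC of 0.00 and 8 of 16 positive. The largest value was that of Rbfox1 at 0.13 (standard error 0.0526), with SI females from 200 to 309 CPM and GH females from 165 to 251. The smallest was that of Celf4 at -0.15 (standard error 0.0511), where SI females ran from 607 (SI 63) to 911 CPM (SI 53) and GH females from 702 to 928. Rbfox3 was at 0.05 (standard error 0.055), and Ptbp1, which represses neuronal exons and is low in neurons, at -0.07 (0.0392). Pabpn1 had a Log2FC of 0.21 (standard error 0.0761).

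In count, 7 of 54 members (Tra2a, Srsf1, Srsf7, Srsf11, Hnrnpc, Hnrnph1 and Rbm39) were differentially expressed genes (DEGs), called at an adjusted p under 0.05, and higher in SI females, and 0 were called lower. Over 16026 genes 0.961% were called higher and 2.93% lower, and nothing is read from this comparison, since it chose the list. The median Log2FC was 0.09 over the members, of which 43 (79.6%) were positive, and 0.01 over all genes, of which 52.8% were positive. The calls depended on the model, for the members as for all genes. EdgeR without surrogate variables called 0 members and 0 of 16026 genes, with a Log2FC for Tra2a of 0.30, and DESeq2 without them called 6 members and 401 genes. Just inside the limit lay Hnrnpc and Srsf7, and just outside Luc7l3 and Srsf6 with Log2FC of 0.23 and 0.20.

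In the same females, the summed level of 9 astrocyte markers was lower in SI, at 4545 to 6465 CPM against 5526 to 7490 in GH (exact permutation test, two-sided p = 0.00311). All 9 had a negative Log2FC and 5 were called lower (Aldh1l1, Slc1a2, Slc1a3, S100b and Aldoc), and none was near 0 CPM in any mouse. The sum of 7 endothelial markers was higher, at 210 to 269 CPM against 186 to 218 (exact permutation test, two-sided p = 0.00746), with 7 of 7 positive and Flt1 called higher. Summed neuron markers were at 6178 to 6937 CPM in SI and 5894 to 7000 in GH females (exact permutation test, two-sided p = 0.962). Of these 10 genes 9 were positive and 0 were called higher, with a median Log2FC of 0.068, and Map2 was called lower at -0.28. The neuron list holds Rbfox3, which is also a member. The part of cell composition in the members' values was not tested.

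**Figure D2:**
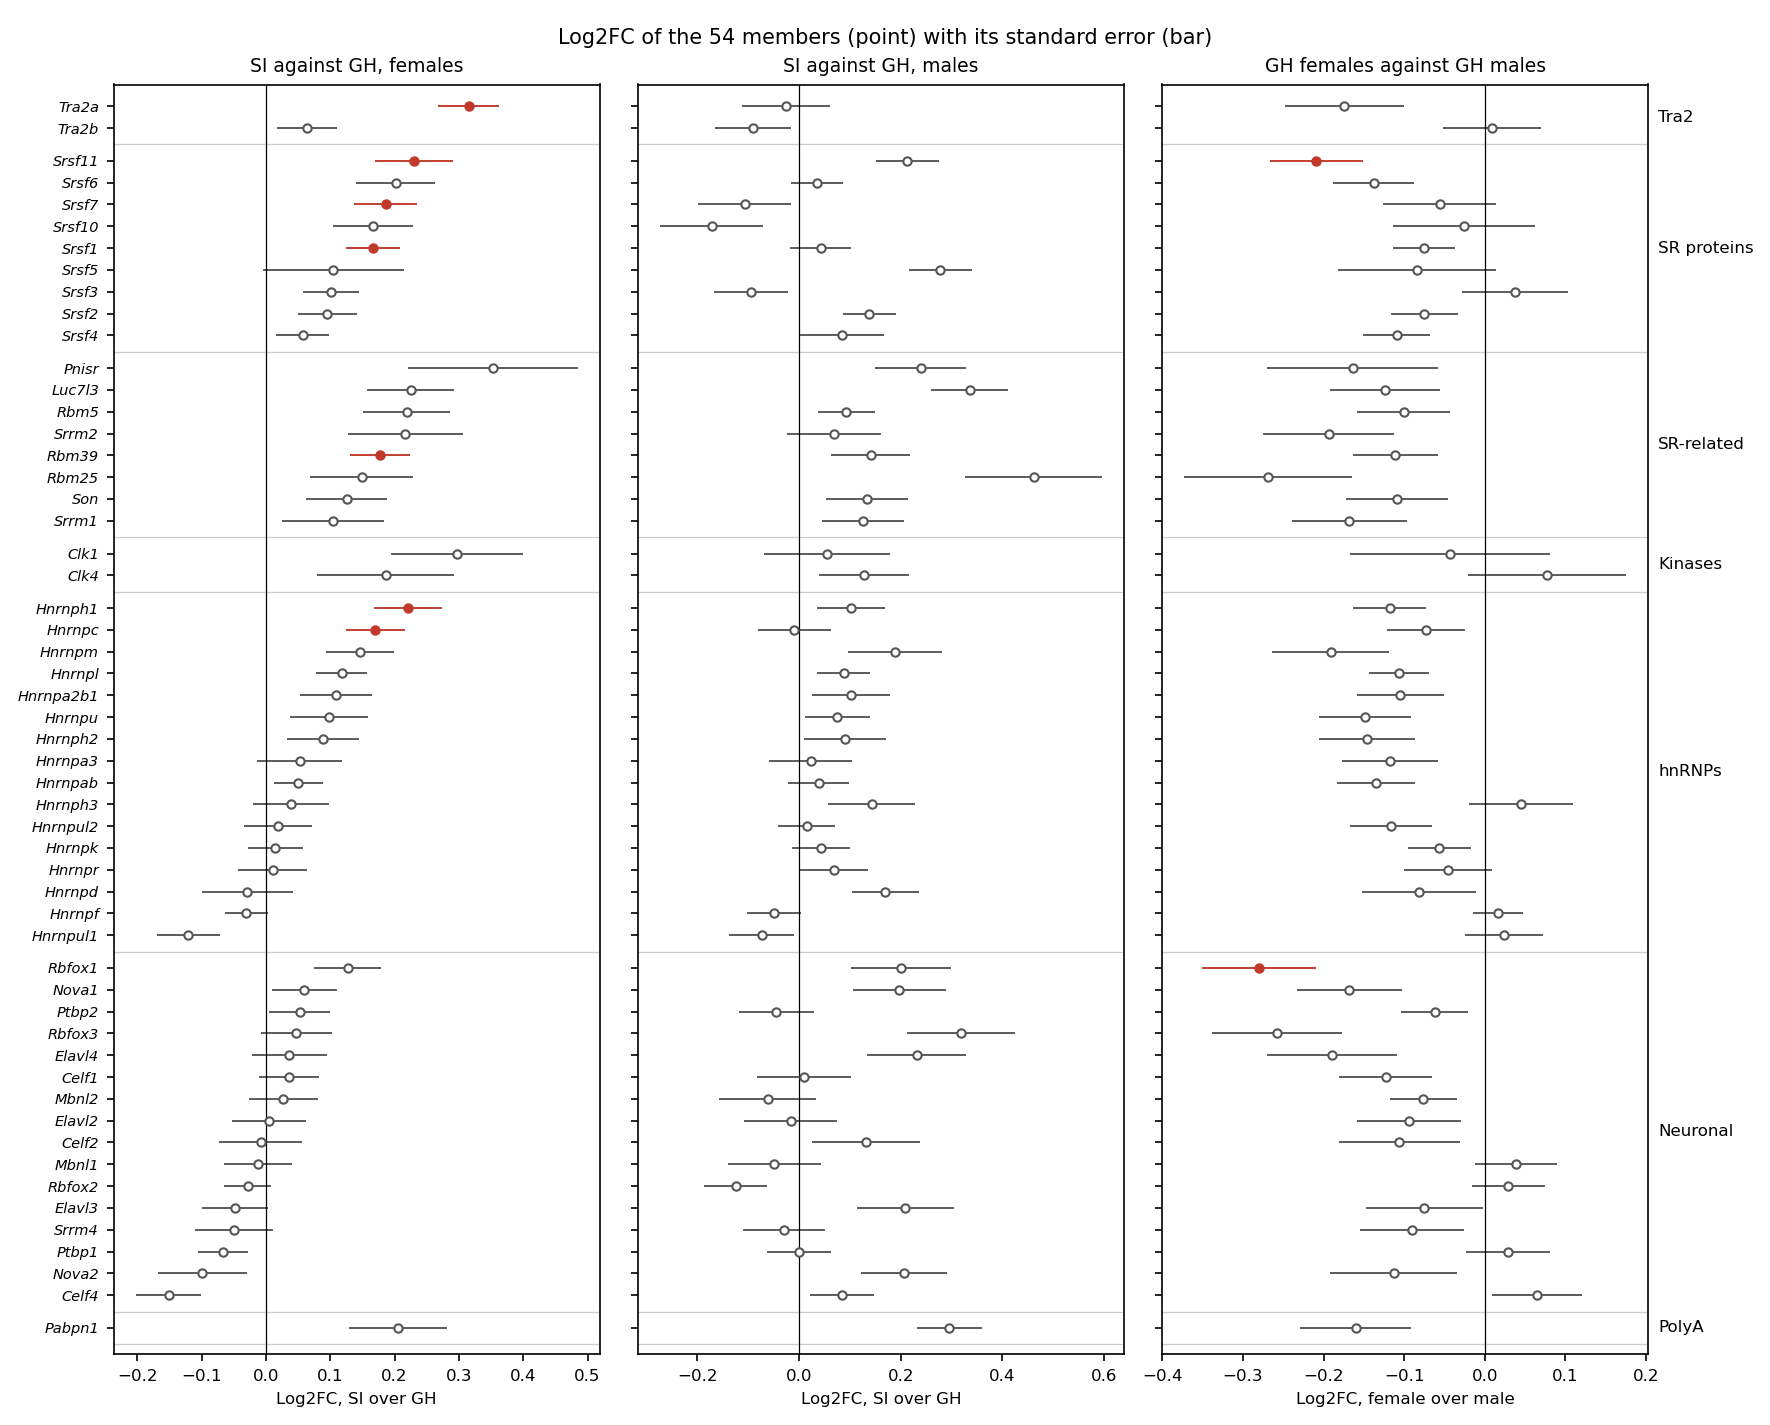
Log2FC of the 54 members (points) with standard errors (bars), by role, for SI over GH in females, SI over GH in males and GH females over GH males, with filled red points for genes called at an adjusted p under 0.05. In females the SR and SR-related genes lie to the right of 0 and the neuronal regulators about it, in males no member is called, and between GH mice Rbfox1 and Srsf11 are called lower in females.

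In males no member was called. The same edgeR test gave 0 of 54 members higher and 0 lower, beside 0% of 15833 genes higher and 0% lower. At an unadjusted p under 0.05 there were 13 members with a positive Log2FC and 0 with a negative one, where 5.63% of all genes were higher and 7.38% lower at that threshold. DESeq2 with the same surrogate variables called 3 members higher (Srsf5, Pabpn1 and Luc7l3) and 0 lower, against 0.0947% and 0.183% of all genes. The median Log2FC over the members was 0.08 and that of all genes 0.00. Of 54 members 39 (72.2%) were positive, beside 49.3% of all genes. Without SI 25, SI 33 and SI 39 the members' median was 0.04. In that fit 81.5% of members were positive, beside 47.7% of all genes. The surrogate variables were estimated again in that fit, which held 4 of them, where the fit of all males held 2. Male values without these mice therefore mix both changes. No member had all SI males above all GH males, which 0.0316% of genes had.

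The smallest p in males belonged to Pabpn1, which binds the growing polyA tail in the nucleus and limits its length. GH males lay between 67.3 and 94.5 CPM (median 75.7) and SI males between 77.5 and 173 (median 108), with SI 25, SI 33 and SI 39 at 173, 173 and 134. Its Log2FC of 0.30 (standard error 0.0643) had an adjusted p of 0.295 by the edgeR quasi-likelihood test (Benjamini-Hochberg adjusted over all genes). Without those 3 mice it was 0.23 (adjusted p 0.681 by the same edgeR test).

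Srsf5, an SR protein that binds exonic enhancers, had a similar difference with and without the mice that stood apart. SI males lay between 164 (SI 8) and 214 CPM (SI 38), with 5 of 7 above the highest GH male, and GH males between 136 (GH 2) and 192 (GH 23). Its Log2FC was 0.28 (standard error 0.0625, adjusted p 0.295 by edgeR's quasi-likelihood test), and 0.24 without SI 25, SI 33 and SI 39. In females Srsf5 had a Log2FC of 0.10 (standard error 0.109), with SI 52 the lowest of all mice at 116 CPM.

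Luc7l3, a component of the U1 snRNP side of splice site choice, was at 93.6 to 123 CPM in GH males and at 103 to 144 CPM in 4 SI males. The other 3 were at 268 (SI 39), 377 (SI 33) and 499 CPM (SI 25). The Log2FC was 0.34 (standard error 0.0754, adjusted p 0.295 by edgeR's quasi-likelihood test) and 0.22 without these 3. Rbm25, which associates with Luc7l3, had the largest Log2FC of any member, 0.46 (standard error 0.135). It was at 85.3 to 104 CPM in GH males, at 84.0 to 144 in 4 SI males and at 239, 361 and 509 CPM in SI 39, SI 33 and SI 25, and without these its Log2FC was 0.17. The size of both differences rested on the surrogate variables, since edgeR without them gave 1.12 for Luc7l3 and 1.28 for Rbm25. With 1 mouse left out, Luc7l3 ran from 0.20 (without GH 24) to 0.59 (without SI 38).

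Of the other genes that the female comparison brought forward, Srsf11 had a Log2FC of 0.21 in males (standard error 0.0616, adjusted p 0.295 by edgeR's quasi-likelihood test). GH males lay between 77.6 and 90.4 CPM, and SI males between 83.4 and 99.6 but for SI 39, SI 33 and SI 25 at 154, 197 and 255 CPM. Rbm39 had a Log2FC of 0.14 (standard error 0.078), with 6 of 7 SI males above the highest GH male, and 0.07 without these 3 mice. Leaving out 1 mouse moved Rbm39 between 0.05 (GH 24) and 0.32 (SI 38), and Srsf11 between 0.12 and 0.41 for the same mice. EdgeR without surrogate variables gave 0.58 for Rbm39 and 0.73 for Srsf11. Hnrnph1 was at 0.10 (standard error 0.0671), Srsf1 at 0.04 (0.0601), Hnrnpc at -0.01 (0.0719) and Srsf7 at -0.11 (0.0912).

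Tra2a itself was at 33.5 (GH 15) to 51.4 CPM (GH 2) in GH males and at 34.1 (SI 7) to 54.4 CPM (SI 25) in SI males, and the groups overlapped over most of their range. Its Log2FC was -0.03 (standard error 0.0866, adjusted p 0.93 by edgeR's quasi-likelihood test). The sign turned with the model: it was 0.17 without surrogate variables and 0.07 without SI 25, SI 33 and SI 39. Tra2b had a Log2FC of -0.09 (standard error 0.0749), and 0.02 without surrogate variables.

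Among neuronal regulators of males, Rbfox3 had the smallest p. GH males were at 321 to 391 CPM and SI males at 345 to 781, with 5 of 7 above the highest GH male. The Log2FC was 0.32 (standard error 0.106, adjusted p 0.311 by edgeR's quasi-likelihood test), and 0.02 without SI 25, SI 33 and SI 39. Celf4 was at 673 to 925 CPM in GH males and reached 1252, 1618 and 1864 CPM in SI 39, SI 33 and SI 25, but its Log2FC with surrogate variables was 0.08 (standard error 0.0624). For Celf4 edgeR without surrogate variables gave 0.53, and leaving out 1 mouse gave 0.0047 (SI 25) to 0.31 (SI 38). Among hnRNPs Hnrnpd had a Log2FC of 0.17 (standard error 0.066), Hnrnpa2b1 0.10 (0.0762) and Hnrnpul1 -0.07 (0.0635). Pnisr was at 0.24 (standard error 0.0904), Clk4 at 0.13 (0.0887) and Clk1 at 0.05 (0.124).

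The 3 SI males that stood apart did so in these genes as in many others. In 15 of 54 members all 3 lay above the other 12 males, and in 8 members all 3 lay below them, while 24.1% of 15833 genes were above and 25.9% below. Above were Srsf2, Srsf3 and Srsf11, Hnrnph1 and Hnrnph3, Celf2, Celf4, Nova1, Elavl3 and Elavl4, Luc7l3, Rbm25 and Rbm39, Clk4 and Pabpn1. Below were Srsf4, Hnrnpu, Hnrnpul1, Hnrnpul2, Rbfox2, Mbnl2, Srrm4 and Srrm2. Hnrnpul1, for example, was at 52.1, 62.8 and 70.3 CPM in SI 25, SI 33 and SI 39 and at 121 to 143 in the other 12 males. In each of the SR-related genes above, SI 25 was highest, then SI 33 and SI 39, the order of their distance on the first principal component. The 8 members below had a median transcript length of 4574 bases, the 15 above one of 2225 and the 31 neither above nor below one of 2415. The median GC content was 51.1% in those below, 43.9% in those above and 44.4% in the 31. Lengths were mixed, with Nova1 at 7000 bases above and Srsf4 at 2257 bases below. Each length is a median over annotated transcripts, and the longest transcript can differ. It had 5244 bases against 2050 for Luc7l3, a gene above, and 3424 against 2328.5 for Hnrnpul1, a gene below. Summed over the 54 members, SI males ran from 8016 to 11555 CPM and GH males from 7374 to 8194. Summed astrocyte markers were at 3982 to 6163 CPM in SI and 4975 to 6872 in GH males (exact permutation test, two-sided p = 0.0159), with 7 of 9 negative and 0 called. Summed endothelial markers were at 212 to 383 CPM in SI and 211 to 270 in GH males (exact permutation test, two-sided p = 0.0373), with 4 of 7 positive and 0 called. Summed neuron markers were at 5482 to 7642 CPM in SI and 6378 to 7191 in GH males (exact permutation test, two-sided p = 0.185), with 7 of 10 positive and 0 called. Here too the neuron list holds the member Rbfox3. The part of cell composition in the members' values was not tested. What set these libraries apart was not tested.

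**Figure D3:**
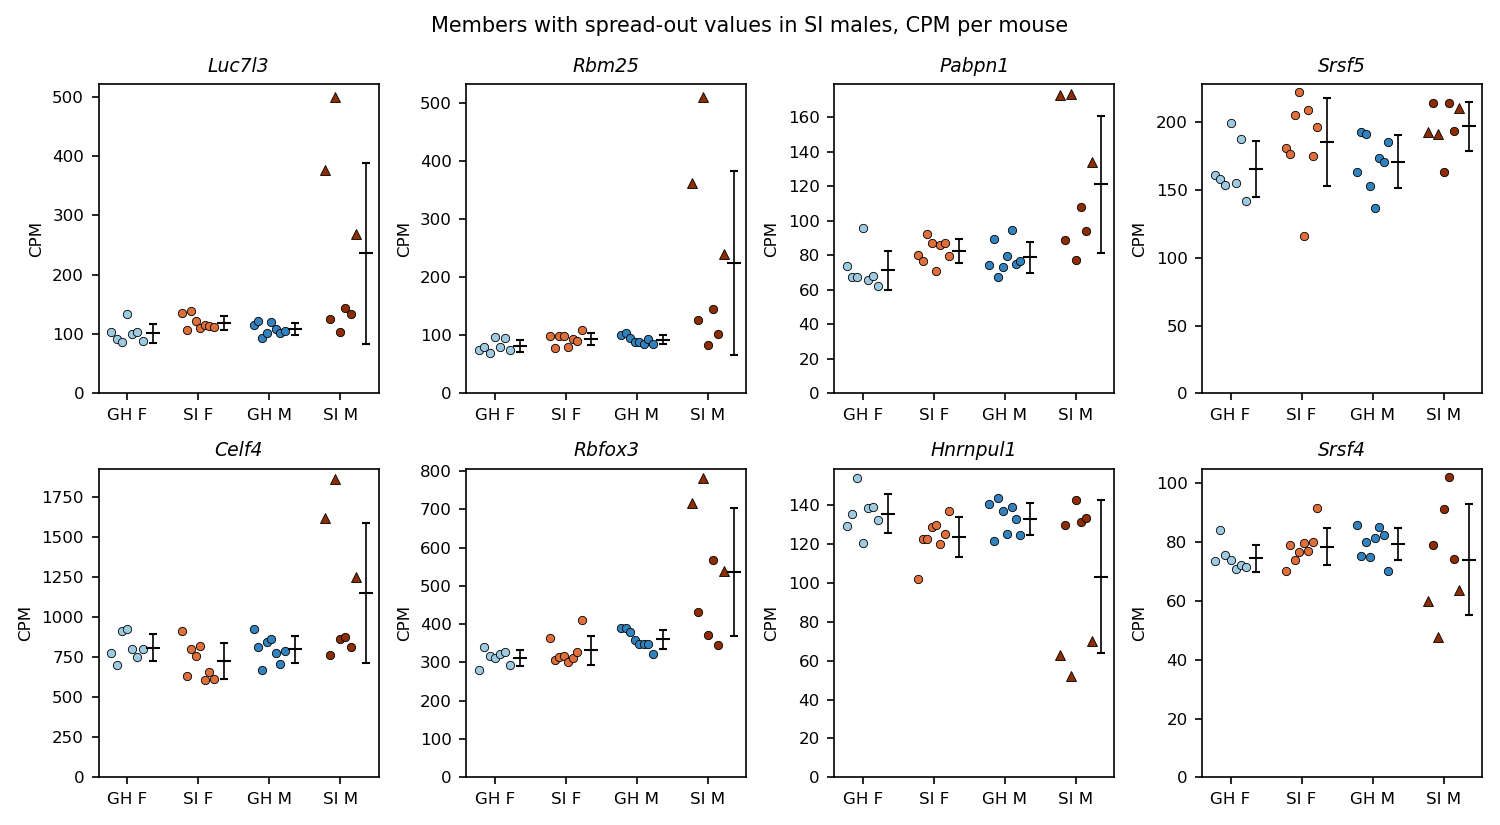
CPM per mouse of 8 members with spread-out values in SI males (F, females, M, males), with the mean and SD beside each group and triangles for SI 25, SI 33 and SI 39. In Luc7l3, Rbm25 and Celf4 the triangles lie above all other mice, in Hnrnpul1 and Srsf4 below them, and in Srsf5 among the other SI males.

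Whether housing acted differently in the sexes was tested as an interaction, the Log2FC of females minus that of males in 1 fit of all 30 mice. No member was called, and edgeR's quasi-likelihood test gave 0% of 16391 genes higher and 0% lower. At an unadjusted p under 0.05 there were 5 members with a positive and 3 with a negative interaction, against 4.94% and 2.54% of all genes. DESeq2 with the same surrogate variables called 0 members, against 0.0305% of genes higher and 0.0183% lower. Tra2a had the smallest p of the members, with an interaction of 0.31 (standard error 0.106, adjusted p 0.604 by edgeR's quasi-likelihood test), and 0.14 without surrogate variables. Next came Celf4 at -0.23 (standard error 0.0818) and Srsf7 at 0.28 (0.103), both with an adjusted p of 0.604 by the same edgeR test. The other members at that threshold were Srsf6, Hnrnpc and Srsf10 on the positive and Nova2 and Elavl3 on the negative side. The female side of this contrast chose Tra2a, so its interaction is not independent of that choice.

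**Figure D4:**
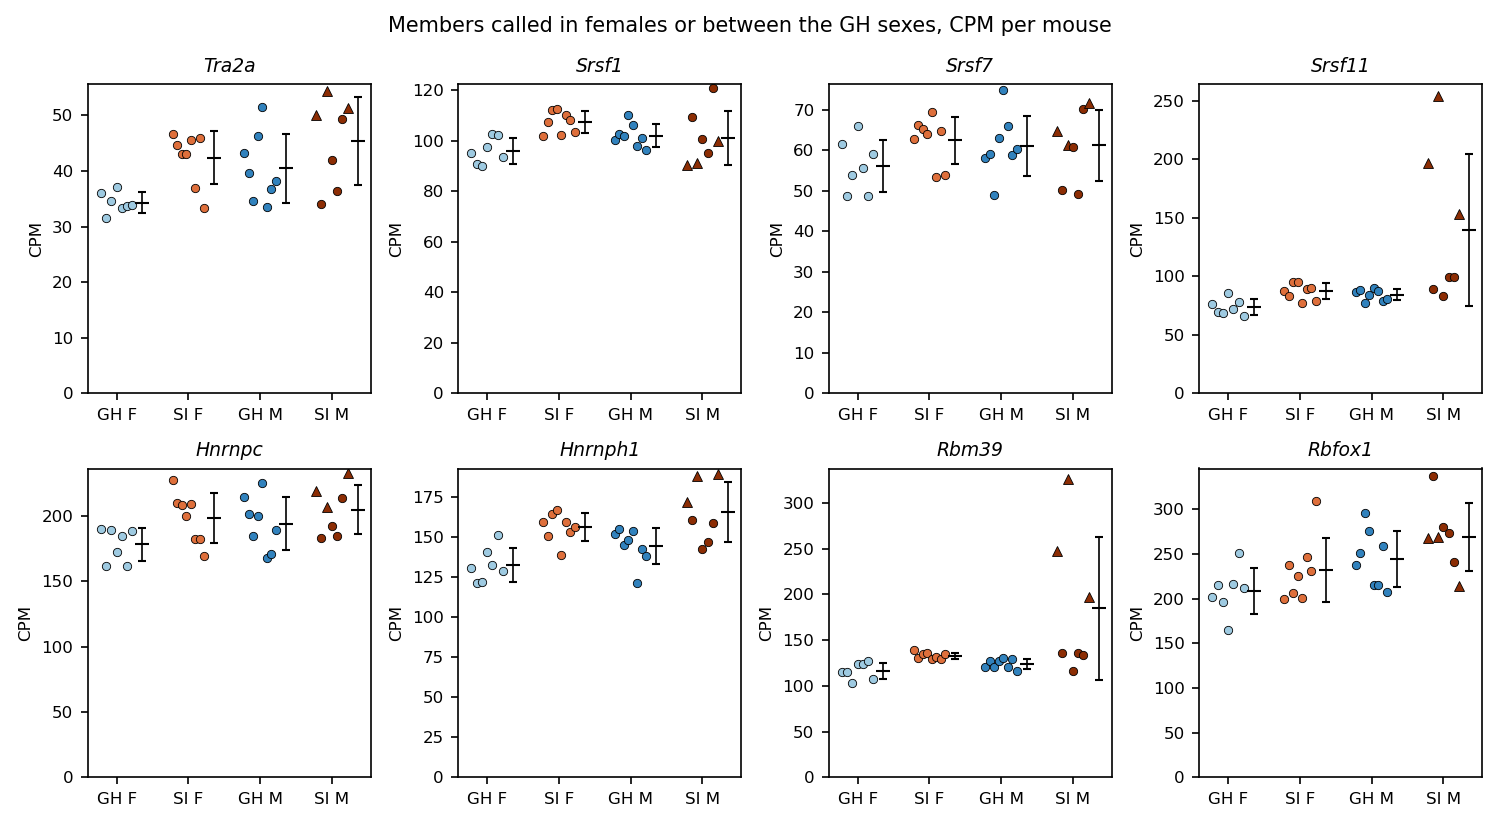
CPM per mouse of the 7 members called in females and of Rbfox1 (F, females, M, males), with the mean and SD beside each group and triangles for SI 25, SI 33 and SI 39. Every SI female lies above every GH female in Rbm39, 6 of 8 do so in Tra2a, and GH females lie low beside GH males in Srsf11 and Rbfox1.

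The GH mice gave a contrast without housing. In the fit of all mice, 0 members were higher in GH females than in GH males, where 3.31% of 16391 genes were, and 2 were lower, where 3.01% were. Rbfox1, which binds intronic elements beside neuronal exons, was at 165 to 251 CPM in GH females and 208 to 296 in GH males. Its Log2FC, female over male, was -0.28 (standard error 0.0705, adjusted p 0.0222 by the edgeR quasi-likelihood test). Srsf11 was at 66.0 to 86.2 CPM in GH females and 77.6 to 90.4 in GH males, with a Log2FC of -0.21 (standard error 0.0577, adjusted p 0.0324 by the same edgeR test). In both genes the ranges overlapped. Of 54 members 44 were negative, with a median of -0.11 against 0.00 over all genes. In share, 18.5% of members were positive, beside 50.4% of all genes. Tra2a was at -0.17 (standard error 0.0736, adjusted p 0.129 by edgeR's quasi-likelihood test).

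These GH females are the same mice that the female comparison of housing used as controls, so a low value in them adds to both contrasts. The calls also rested on the other mice in the fit. Without SI 25, SI 33 and SI 39, a setting added after the data were seen, 0 members were called. The members' median Log2FC was -0.05 in that fit, with 20.4% positive beside 49.5% of all genes. Rbfox1 was then at -0.17 (adjusted p 0.0563 by edgeR's quasi-likelihood test) and Srsf11 at -0.17 (adjusted p 0.152 by the same edgeR test). Astrocyte markers were higher in GH females, with 4 of 9 called (Gfap, Aldh1l1, S100b and Aldoc) and 9 of 9 positive, and of 10 neuron markers, a list that holds Rbfox3, 3 were called lower (Snap25, Slc17a7 and Gad1) and 1 higher (Map2). Their part in the members' values was not tested.

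Other genes of the splicing pathway were counted from lists written beside the members. In SI females their calls stand beside 0.961% of all genes called higher and 2.93% lower, and nothing is read from them. Of 32 other SR, hnRNP and tissue regulators, 3 were called higher in SI females (Tardbp, Acin1 and Sfpq, with Log2FC of 0.19, 0.19 and 0.20) and 1 lower (Qk, a glial regulator of myelin transcripts, at -0.20). Of 10 kinases and phosphatases of SR proteins, Srpk1, Clk2 and Clk3 were called higher, at 0.20, 0.22 and 0.23. Of 40 core spliceosome genes 1 was called higher (Prpf3, at 0.20), and 33 were positive. Of 14 genes of the exon junction complex and nonsense-mediated decay 1 was called higher (Smg1, the kinase that starts that decay, at 0.19). Of the nuclear-retained RNAs listed, Snhg11 was analysed here and was at 0.50 (standard error 0.189) without a call.

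In males 0 genes of these lists were called. The smallest p in each list belonged to Qk at -0.27 (standard error 0.0949), Srpk3 at 0.43 (0.12), Snrnp70, the U1 protein, at 0.27 (0.0701), Upf3b at 0.39 (0.123) and Snhg11 at 0.32 (0.126), with adjusted p from 0.295 to 0.341 by edgeR's quasi-likelihood test. Between GH females and GH males 6 of the 32 other regulators were lower in females (Srrm3, Khdrbs3, Pcbp1, Rbm10, Acin1 and Sfpq), as were 1 of 10 kinases and phosphatases (Srpk1), 8 of 40 core spliceosome genes and 1 of 14 decay genes (Upf1), and 0 were higher, beside 3.01% of all genes lower and 3.31% higher. Sf3a2, a U2 snRNP protein, had the lowest value of these at -0.36 (standard error 0.0832, adjusted p 0.0172 by edgeR's quasi-likelihood test), and Srrm3, a relative of Srrm4 that also acts on microexons, was at -0.26 (standard error 0.0513, adjusted p 0.00808 by the same test).

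Likeness to Tra2a was described in the 15 GH mice, as Spearman's rho of CPM after centring each sex. The points share the normalization of each library, and no test is given. The 3 most alike were Srsf3, the smallest SR protein, at 0.768, Celf4 at 0.764 and Hnrnpc at 0.739. Srsf3 was at 0.821 within the 7 GH females and 0.786 within the 8 GH males, and Celf4 at 0.643 and 0.857. Hnrnpc was at 0.5 and 0.905, and Hnrnph3, the next member, at 0.179 and 0.81. The least alike were Ptbp1 at -0.657, Srrm1 at -0.629, and Hnrnpr and Srsf5, both at -0.368. Within the GH females and the GH males, Ptbp1 was at -0.107 and -0.929 and Srrm1 at -0.536 and -0.714. Hnrnpr was at -0.821 and -0.333 and Srsf5 at 0.321 and -0.643. Tra2b was at 0.246. Over the other 53 members the median was 0.071, and over 16390 genes it was 0.011, with 5th and 95th percentiles of -0.543 and 0.536, so that 6 members lay above the latter and 2 below the former. Celf4, the second most alike in GH mice, differed from Tra2a in sign between SI and GH females.

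**Figure D5:**
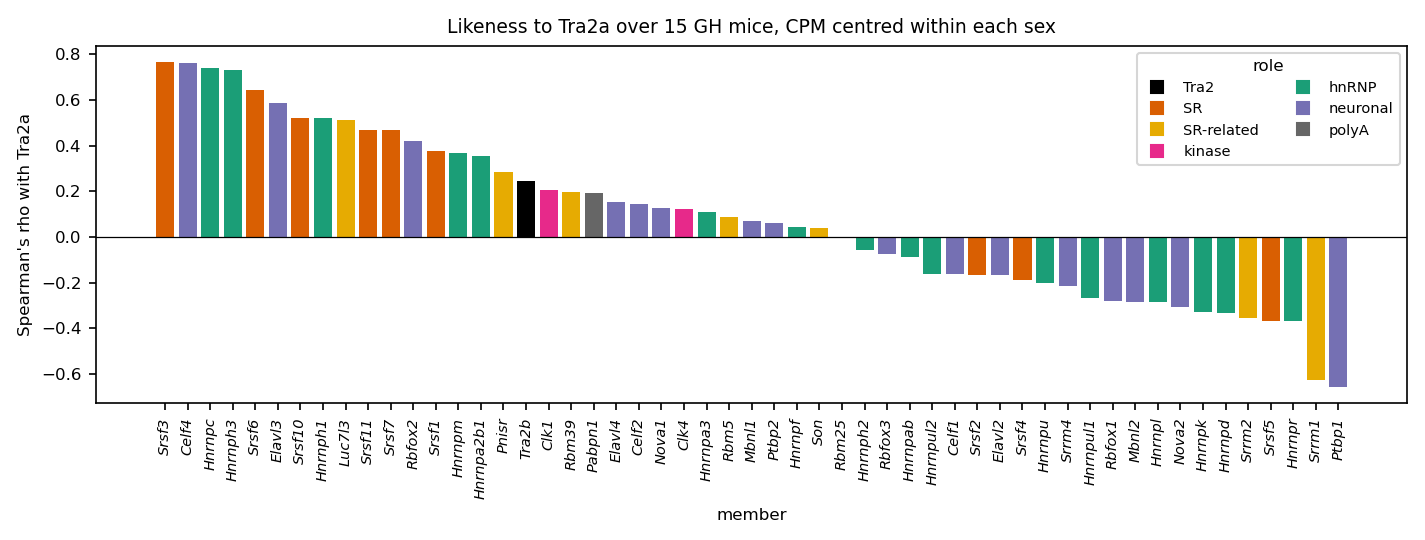
Spearman's rho with Tra2a of the other 53 members over 15 GH mice, CPM centred within each sex, as bars coloured by role. Srsf3, Celf4, Hnrnpc and Hnrnph3 stand above 0.7, and Srrm1 and Ptbp1 below -0.6.

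As sequences, the members' transcripts were low in GC and rich in annotated forms. The median GC content of their transcripts was 45.3%, from 38.5% to 58.7%, against 51.0% over the genes with a transcript in the annotation. A member had a median of 6 annotated transcripts, up to 26, against 3. The median length was 2424 bases, from 752 to 8594, against 2296. The part of these properties in the members' values was not tested. Removing the trend of each library with length and GC content gave Tra2a a Log2FC of 0.29 in females. That fit called 10 members and 1390 of 16026 genes in females, where the fit without it called 7 and 624, and 0 members and 0 genes in males.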

How the data were processed

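Counts per gene were measured by RNA-seq in 30 hippocampal libraries. Per the submitters' processing notes, the authors ran Trimmomatic 0.39 on the reads and Salmon 1.8.0 for quantification (GRCm39 named as build), and deposited 1 table of estimated counts, rounded to whole numbers, for genes with at least 100 counts in all. Its annotation is not given in the sources used here. Genes carried Ensembl IDs. Symbols were found for 94.1% of them, and transcript lengths and base composition for 91.3% (GENCODE vM1, NCBIM37). All 30 columns matched a mouse by name and 0 had none.

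The analysis used R 4.3.3, edgeR 4.0.16, sva 3.50.0 and DESeq2 1.42.0, with exact permutation tests in scipy 1.17.1. In each sex, genes kept by filterByExpr (minimum count 10, minimum total 15) were normalized by TMM. Surrogate variables came from svaseq, their number from its permutation method (20 permutations, seed 1): 3 in females, 2 in males and 4 in the fit of all mice. Housing was tested by the edgeR quasi-likelihood test over all genes, with Benjamini-Hochberg adjustment and a threshold of 0.05. CPM were computed by edgeR from the TMM-scaled library sizes. The authors used DESeq2, which served here as an alternative beside others without surrogate variables, with 1 surrogate variable, with the position digit of the sample names, with DESeq2 size factors, with other filters, with length and GC trends removed by lowess (span 0.3) and with mice left out. The fits and the trend removal were also run on simulated counts. Those held no hidden batch, so they cannot check the surrogate variable step. Replicates are separate mice.

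The members, gene lists, tests and named genes were chosen with earlier results of these data known. Named were Tra2a, each member called in any fit, in each role the member with the smallest p in males, the largest and smallest Log2FC in females and the highest level per length, and the 3 members most and least correlated with Tra2a. Other members were named after their values were seen. Rbm4, Malat1, Neat1, Meg3, Miat and Rian were not analysed here. Depth was at least 18809307 counts per library and no member had fewer than 347 counts in a mouse. What limits the precision of the values was not tested. Where genes share sequence with paralogs or antisense transcripts, as the hnRNP and SR families do, counts may be split between them.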

Additional observations from a re-analysis of the deposited data

Results flagged for a closer look

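In each group of 4 to 10 mice, the highest or lowest value of a named member was set against the gap to its nearest neighbour by Dixon's ratio. Of 100 groups of mice and genes looked at, 7 passed the 95% critical value, where 5 would be expected at 1 in 20. SI female 45 was the highest SI female in 3 of them. Its CPM was 309.1 for Rbfox1 (others 199.9 to 246.7), 91.5 for Srsf4 (others 69.9 to 79.9) and 191.4 for Hnrnpd (others 114.8 to 150.6). GH female 78 was the highest GH female for Luc7l3 at 134.2 CPM (others 86.4 to 103.6) and for Pabpn1 at 95.7 CPM (others 62.1 to 73.5). GH female 46 had 84.1 CPM of Srsf4 (others 70.6 to 75.6). SI female 52 had 116.3 CPM of Srsf5, below the other SI females at 174.7 to 222.4 CPM. Male groups gave no such value. The ratio uses the nearest neighbour alone, so values that stand apart together hide each other. In Luc7l3, SI males 25, 33 and 39 were at 499, 377 and 268 CPM without a flag. The missing flags therefore do not mean that no male value stood apart.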

How the results depend on the processing

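The number of members called moved with the model, as did that of all genes. In females the 7 calls (624 over all genes) became 13 (12 higher and Celf4 lower, 1262 genes) in DESeq2 with the same surrogate variables. They became 0 (0 genes) both in edgeR without surrogate variables and with the position digit as a factor. In males the 0 calls (0 genes) became 3 (44 genes) in DESeq2 with the same surrogate variables and 12 (304 genes) in DESeq2 without them, and stayed 0 (1 gene) without SI 25, SI 33 and SI 39. The interaction had 0 called members under all alternatives run. Between GH females and GH males the 2 calls (1035 genes) became 5 (1935 genes) in DESeq2 with surrogate variables and 12 (2064 genes) with the length and GC trend removed. They became 0 in DESeq2 without surrogate variables, in edgeR with 0 or 1 surrogate variable, with the position digit and, in a setting added after the data were seen, without SI 25, SI 33 and SI 39, in fits that called 9 to 184 genes. The causes were not tested.

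Leaving out each mouse gave between 1 and 19 called members and between 88 and 1427 called genes in females. Leaving out SI 45, SI 63, SI 68, SI 73, GH 48 or GH 54 left 1 call, with 88 to 290 genes called, SI 49 left 2 (288 genes), GH 46 left 4 (945), SI 52 left 12 (1017) and GH 78 left 19 (1427). In males it gave between 0 and 14, where leaving out SI 27 gave 14 (11 higher and 3 lower, 2414 genes), SI 38 gave 5 (128 genes) and each of the other 13 mice gave 0 (0 or 1 gene). The surrogate variables were estimated again in each fit, so that these counts mix both changes. No paired analysis was possible because animal numbers are not shared between the groups compared.

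The sign of the Log2FC turned for 2 named members in females and 11 in males, some with values as far from 0 as Srrm1 at 0.13 and Srsf7 at -0.11 in males. The turned values in females were 0.0171 for Hnrnpd in DESeq2 without surrogate variables, 0.02 for Hnrnpd in edgeR without them, 0.0087 for Hnrnpd with 1 surrogate variable, 0.0776 for Hnrnpd with the position digit, -0.0036 for Hnrnpr with at least 10 counts in every sample and -0.0058 for Hnrnpr with the trend removed. In males DESeq2 without surrogate variables gave 0.178 for Tra2a, 0.016 for Srsf7, 0.0894 for Hnrnpc, 0.0362 for Tra2b, -0.0885 for Srsf4, -0.0123 for Srrm1 and 0.161 for Srsf3. EdgeR without them gave 0.167 for Tra2a, -0.0108 for Srsf1, 0.005 for Srsf7, 0.0783 for Hnrnpc, 0.0249 for Tra2b, -0.0989 for Srsf4, -0.0238 for Srrm1 and 0.148 for Srsf3. With 1 surrogate variable the male values were 0.0598 for Tra2a, 0.0322 for Hnrnpc and 0.0064 for Srsf3. The position digit gave 0.162 for Tra2a, 0.0639 for Srsf7, 0.0693 for Hnrnpc, 0.041 for Tra2b, -0.113 for Srsf4, -0.0529 for Srrm1 and 0.145 for Srsf3. With at least 10 counts in every sample the turned values were 0.0239 for Tra2a and 0.0194 for Hnrnpc, and with the trend removed the value was 0.0407 for Hnrnpc. Without SI 25, SI 33 and SI 39 they were 0.0679 for Tra2a, 0.0465 for Srsf7, 0.0187 for Hnrnpc, 0.0132 for Tra2b, -0.0383 for Srsf4 and 0.0232 for Srsf3. DESeq2 with surrogate variables gave 0.0029 for Ptbp1, and DESeq2 size factors gave 0.0044 for Ptbp1. Each mouse left out in turn gave ranges of -0.0543 to 0.0477 for Hnrnpd and -0.0214 to 0.0471 for Hnrnpr in females, and of -0.0541 to 0.12 for Clk1, -0.0419 to 0.0663 for Hnrnpc, -0.286 to 0.0104 for Hnrnpul1, -0.114 to 0.0296 for Ptbp1, -0.0369 to 0.0825 for Srsf1, -0.144 to 0.101 for Srsf3, -0.102 to 0.124 for Srsf4, -0.195 to 0.0145 for Srsf7, -0.104 to 0.133 for Tra2a and -0.133 to 0.0212 for Tra2b in males. Every member had at least 347 counts in each mouse, and what turned these signs was not tested.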
